A study of Mus musculus with 2 samples.

Results

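The 10 genes described here are 4 small proline-rich genes, Sprr2b, Sprr2d, Sprr2e and Sprr2f, and 6 keratin genes, Krt6a, Krt7, Krt8, Krt14, Krt18 and Krt19, out of 32285 genes counted in single cells of the mouse uterus. They were chosen by symbol, with their levels in these libraries already known, and all 10 were found. The data are 2 droplet libraries from whole uteri of C57BL/6J females aged 6 months, each a pool of 3 mice. The title of 1 library reads Prickle1 f/f (the control-labelled library) and that of the other Prickle1 f/f MiC (the cKO-labelled library, for conditional knockout). Both therefore carry the Prickle1 f/f alleles, and no label explains the term MiC. The genotype field reads wild-type for both. Prickle1 acts in planar cell polarity, and per the series title its loss was meant for the muscle wall of the uterus.

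Keratins are intermediate filament proteins that assemble as pairs of a type I and a type II chain. Krt8 and Krt7 (type II) with Krt18 and Krt19 (type I) are typical of simple epithelia such as the lining and glands of the uterus, whereas Krt14 (type I) marks the basal layer of stratified epithelia and Krt6a (type II) is induced there by stress and injury. The Sprr2 proteins are precursors of the cornified envelope of squamous cells, and in the mouse uterus several of the genes are known to respond to oestrogen.

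In the GENCODE vM21 annotation (GRCm38) the Sprr2 genes lie together on the plus strand of chromosome 3, where 13 genes and pseudogenes span 218 kb and the 4 described here span 49.8 kb. Krt7, Krt6a, Krt8 and Krt18 are on chromosome 15, and Krt14 and Krt19 on chromosome 11. The bases upstream of the RefSeq start of the 4 Sprr2 genes (GRCm38.p6, plus strand) are printed because these neighbours shared sequence but not level. Capitals mark matches to an AP-1 site (TGAGTCA), an octamer (ATTTGCAT) and a TATA box (TATAAA). The stretch of Sprr2b ends 86 bases before its start, since the GENCODE transcript begins there, and leaves out its TATA match.

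Sprr2b, chr3:92316455-92316619: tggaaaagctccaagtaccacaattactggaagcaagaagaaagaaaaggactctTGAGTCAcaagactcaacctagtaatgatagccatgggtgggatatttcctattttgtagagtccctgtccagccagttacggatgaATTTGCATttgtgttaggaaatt
Sprr2d, chr3:92338890-92339139: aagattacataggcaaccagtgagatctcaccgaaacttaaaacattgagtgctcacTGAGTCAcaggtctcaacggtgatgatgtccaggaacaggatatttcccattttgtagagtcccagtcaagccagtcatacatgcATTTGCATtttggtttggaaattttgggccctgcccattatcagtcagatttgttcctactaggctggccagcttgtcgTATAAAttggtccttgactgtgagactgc
Sprr2e, chr3:92351893-92352142: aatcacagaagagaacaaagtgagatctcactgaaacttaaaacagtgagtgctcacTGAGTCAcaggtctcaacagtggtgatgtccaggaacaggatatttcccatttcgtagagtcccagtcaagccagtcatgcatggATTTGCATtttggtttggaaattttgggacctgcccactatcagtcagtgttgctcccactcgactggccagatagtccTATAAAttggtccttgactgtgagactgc
Sprr2f, chr3:92364937-92365186: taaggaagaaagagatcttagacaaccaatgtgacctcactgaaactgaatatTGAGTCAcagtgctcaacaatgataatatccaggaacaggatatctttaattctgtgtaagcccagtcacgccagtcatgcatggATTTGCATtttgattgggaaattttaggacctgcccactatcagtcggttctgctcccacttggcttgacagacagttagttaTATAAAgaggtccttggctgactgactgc

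Motifs were searched on both strands in 27025 RefSeq promoters, each the 250 bases before the start, and were picked with these sequences in view. The AP-1 letters were in all 4 Sprr2 promoters and in 4.43% of all promoters, the octamer in 4 and 1.61%, and the TATA letters in 4 and 13.0%. AP-1 and octamer occurred together in 30 promoters, of which 7 belonged to Sprr2 genes. The TATA match lay at the same place, 29 to 24 bases before the start, in each of the 4. No match to an oestrogen response element (GGTCA and TGACC with any 3 bases between), an ETS site (ACCGGAAGT) or an interferon response element (GAAA and GAAA with any 2 bases between) was found in any of the 4, nor was any of the 6 motifs in the 4 keratin members with a promoter entry. Sprr2d and Sprr2e were identical over 89.3% of aligned promoter columns, and Sprr2b was 61.5% to 64.2% identical to the other 3.

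The control-labelled library held 45035801 unique molecular identifiers (UMIs, each standing for 1 captured transcript) and the cKO-labelled library 34261441. Filtering left 3490 and 3586 cells, with medians of 4953 and 4903 UMIs, and 6 barcodes were shared between them. Prickle1, which checks the labels, was not lower in the cKO-labelled library: it had 96 UMIs (2.56 CPM, the UMIs of a gene scaled so that all genes of the group sum to 1e6) in the control-labelled library and 265 (9.03 CPM) in the cKO-labelled library, and in smooth muscle-like cells 14.8 and 24.3 CPM. A 3-prime tag outside the deleted part would not show a deletion, and the labels do not say which part was deleted. With 1 library per group there is no replicate error and no test. Intervals are exact, at 95%, and cover counting error only, and the group cannot be told apart from the pool, the dissociation or the capture.

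Epithelium-like cells were the main source of the members in both libraries, except for Krt14 in the control-labelled library. They were 4 clusters named from Epcam, Cdh1, claudins and other markers that include no keratin or Sprr2 gene. They numbered 1310 in the control-labelled library and 109 in the cKO-labelled library, and all 8 epithelial markers were present in both. Of 101081 Sprr2 UMIs in cells of the control-labelled library 100243 lay in them, as did 3415 of 3465 in the cKO-labelled library. For the 6 keratins the figures were 180615 of 184186 and 15085 of 16702 UMIs.

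**Figure D1:**
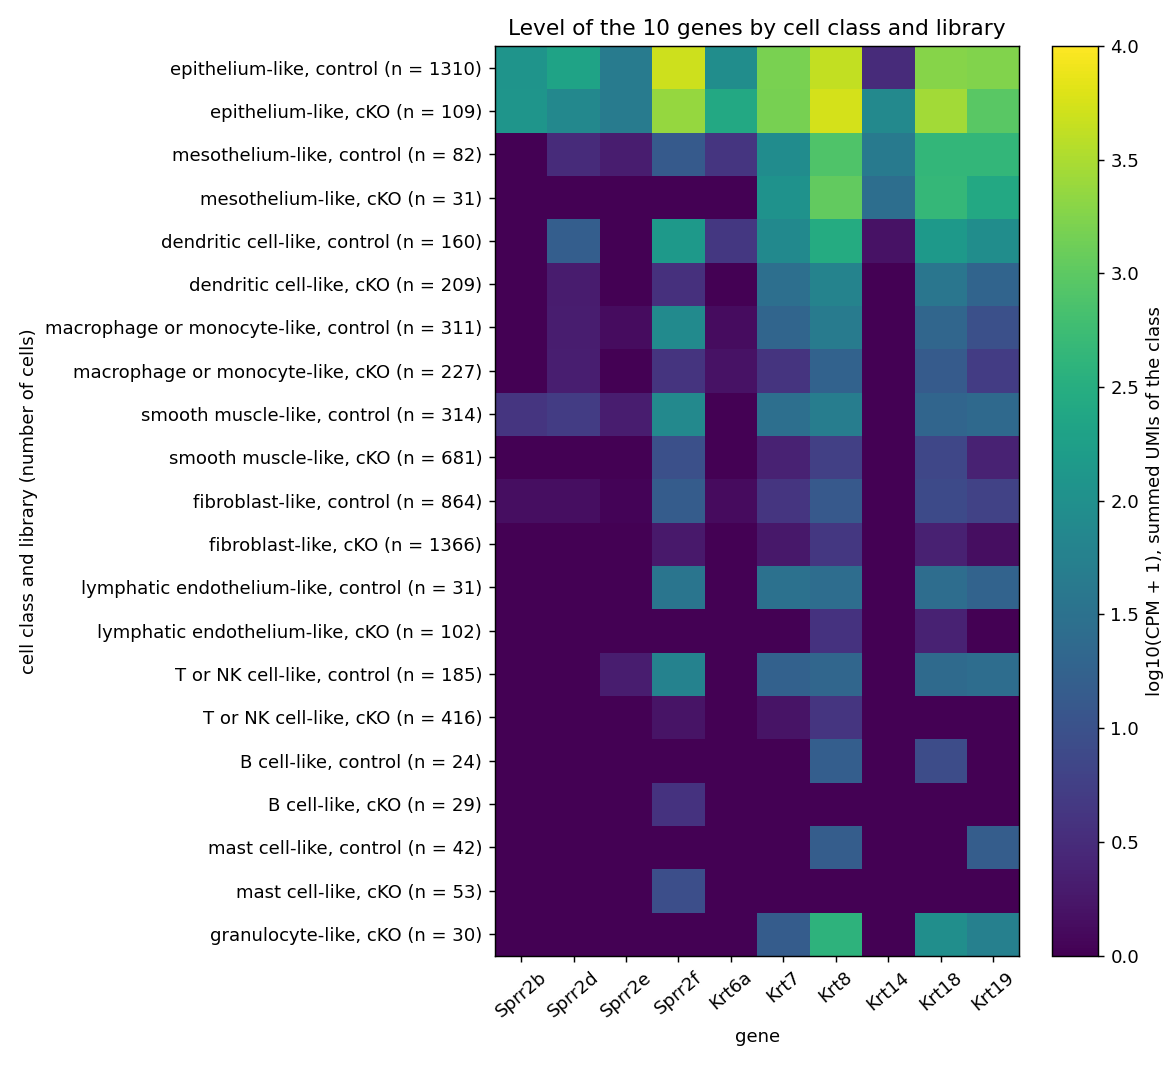
Level of each gene (columns) in each cell class and library (rows, with the number of cells), as log10 of summed CPM plus 1; brighter is higher. Sprr2f reached 4935 and 2297 CPM in the epithelium-like rows, Krt8 788 and 1100 CPM in the mesothelium-like rows. Among the other rows Krt8 reached 379 CPM (28 UMIs, 30 granulocyte-like cells of the cKO-labelled library) and 289 CPM (dendritic cell-like, control-labelled library).

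Mesothelium-like cells, the lining of the outer surface, carried keratins and almost no Sprr2. Krt8 stood at 788 CPM in 82 cells of the control-labelled library and 1100 CPM in 31 of the cKO-labelled library, Krt18 at 445 and 454 CPM, Krt19 at 444 and 263 CPM, and Krt7 at 87.5 and 107 CPM. Krt14 had 40 and 15 UMIs there (42.7 and 26.8 CPM), so that in the control-labelled library as many Krt14 UMIs came from 82 mesothelium-like cells as from 1310 epithelium-like cells. The 4 Sprr2 genes together had 15 UMIs in the control-labelled library and 0 in the other, where 3 UMIs would be 5.36 CPM. Of the 10 members 0 were past a log2 ratio of 1 and 1 past -1, Sprr2f with 12 and 0 UMIs, beside 5.44% and 3.15% of the 9177 genes expressed in mesothelium-like cells.

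UMIs of these genes in other cells were compared with free RNA. T or NK cell-like cells, which should lack the genes, had a Sprr2f UMI in 8.11% of cells (4.61 to 13.0) in the control-labelled library and 0.240% (0.00609 to 1.33) in the cKO-labelled library, with 4030 and 3475 UMIs in the median cell of each. Barcodes with at most 100 UMIs, taken as empty droplets, held 1652 and 38.2 CPM of Sprr2f and 1467 and 179 CPM of Krt8. The free RNA of the control-labelled library thus held more of both. Dendritic cell-like cells stood above T or NK cell-like cells, with 147 against 57.7 CPM of Sprr2f in the control-labelled library, and doublets had not been removed; their part in this was not tested.

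Sprr2f was the dominant Sprr2 gene in both libraries and was lower in the cKO-labelled library. It made up 93.0% of the members' Sprr2 UMIs in epithelium-like cells of the control-labelled library and 90.6% in the cKO-labelled library. UMI counts from the 3-prime end do not scale with transcript length, so levels of different genes can be set side by side. Sprr2f stood at 4935 CPM (4903 to 4967, from 93210 UMIs) in the control-labelled library and 2297 CPM (2217 to 2379, from 3094 UMIs) in the cKO-labelled library. The log2 ratio, cKO label over control label with 5 CPM added to both levels, was -1.10 (interval of the plain ratio -1.16 to -1.05).

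A few cells carried most of what was left in the cKO-labelled library. The cell richest in Sprr2f held 1387 of its 3094 UMIs, and the 5 richest cells held 90.6%, against 10.8% for the 5 richest of the control-labelled library. The counting interval therefore understates the uncertainty. These are 5 of 109 and 5 of 1310 cells, and depth was uneven too. The 5 deepest epithelium-like cells held 48.9% of all UMIs of the class in the cKO-labelled library and 4.34% in the control-labelled library. How far depth accounts for the concentration was not tested. With each cell weighted equally the mean was 3332 CPM against 874 CPM, a log2 ratio of -1.93. Without the cell of each library richest in Sprr2f the ratio was -1.62, and without the 5 deepest cells of each it was -2.90.

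The share of cells showed the same direction. A Sprr2f UMI was found in 83.4% of epithelium-like cells (81.2 to 85.3) in the control-labelled library and in 42.2% (32.8 to 52.0) in the cKO-labelled library. With every cell thinned to 1000 UMIs the shares were 67.3% and 27.5%. Both exceeded the thinned share of T or NK cell-like cells, which was 2.70% and 0. Any of the 4 Sprr2 genes was found in 83.8% (81.7 to 85.8) and 43.1% (33.7 to 53.0) of epithelium-like cells.

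**Figure D2:**
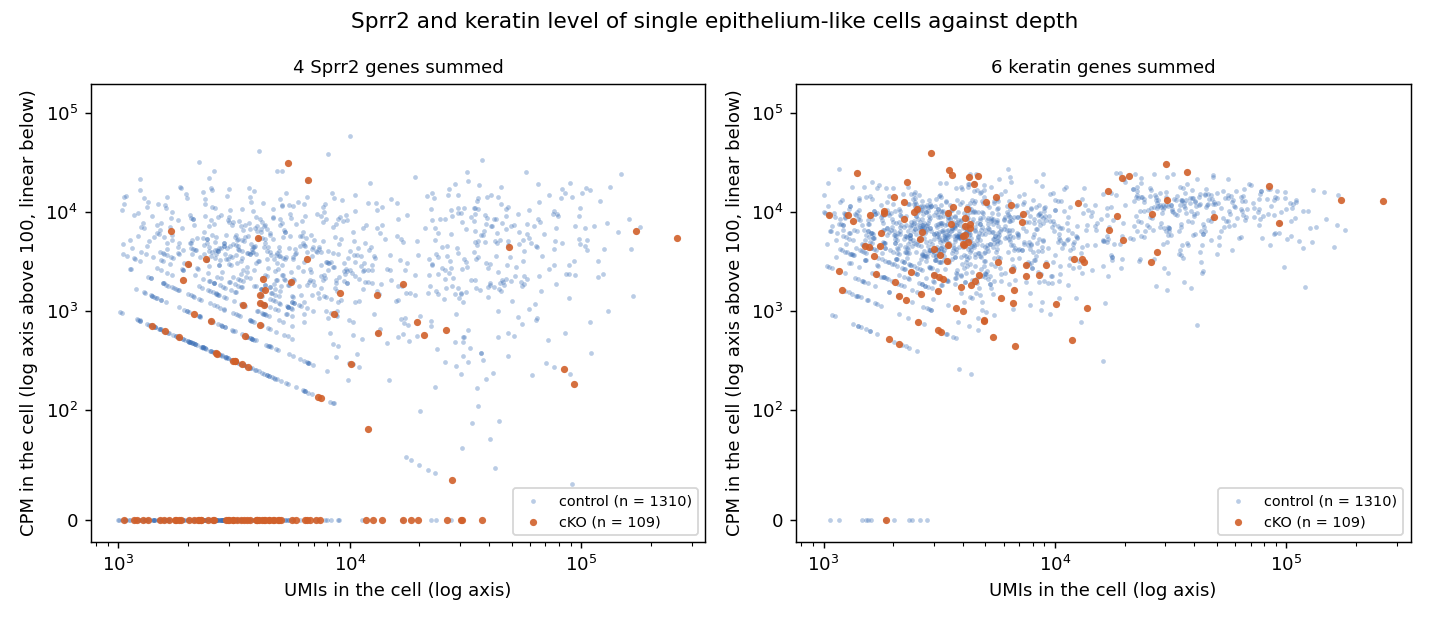
Summed CPM of the 4 Sprr2 genes (left) and the 6 keratins (right) in each epithelium-like cell against its UMIs, with 1310 cells of the control-labelled library in blue and 109 of the cKO-labelled library in orange. Many orange points lie at 0 on the left, where 43.1% of cells have a UMI, while the keratin clouds overlap, with 99.1% of cells having a UMI in each library.

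Sprr2d, whose promoter is nearly that of Sprr2e, was also lower. It had 3997 UMIs (212 CPM) in the control-labelled library and 99 (73.5 CPM) in the cKO-labelled library, a log2 ratio of -1.46 (-1.83 to -1.24). In the cKO-labelled library 62 of the 99 UMIs came from 1 cell and all of them from 5 cells. Without the cell of each library richest in it the ratio was -2.30. Sprr2e had 863 and 61 UMIs (45.7 and 45.3 CPM), a log2 ratio of -0.01 (-0.41 to 0.36). Of its 61 UMIs 53 lay in 1 cell, without which its level was 7.36 CPM. With the richest control-labelled cell left out as well, the ratio was -1.81.

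Sprr2b had no stable direction. Its levels were 115 CPM (110 to 120) and 120 CPM (102 to 139), from 2173 and 161 UMIs, with a log2 ratio of 0.05. In the cKO-labelled library the 5 richest of 109 cells held 95.7% of these UMIs, against 48.7% for 5 of 1310 in the control-labelled library. A single cell held 59 of the 161, without which the level was 76.1 CPM. Over the alternatives run the ratio went from -1.17 to 1.11. Sprr2b shares 13.7% of the 50-base stretches in the last 400 bases of its transcript with Sprr2a1, Sprr2a2 and Sprr2a3, and 0 of 311 stretches of 90 bases. At 50 bases the other 3 Sprr2 members shared none, Krt14 shared 6.27% with Krt16 and Krt17, and Krt18 1.42% with Gm5200. The read length is not given in the sources used here, so how far these copies could divide the counts of Sprr2b, Krt14 and Krt18 is uncertain.

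Sprr2b, Sprr2d and Sprr2e were found in few cells, nearly all of which held Sprr2f. In the control-labelled library 260 epithelium-like cells had a UMI of at least 1 of the 3, and 254 of those also had Sprr2f. In the cKO-labelled library the counts were 12 and 11. The 260 cells had a median of 12590 UMIs and the 12 a median of 6101. At a clustering resolution of 2.0, 58 cells of the control-labelled library, with a median of 36482 UMIs, held 1722 Sprr2b, 3011 Sprr2d, 718 Sprr2e and 1399 Krt6a UMIs. The corresponding 14 cells of the cKO-labelled library held 66, 64, 56 and 330, of which the cell richest in each gene held 54, 62, 53 and 132. As levels these were 651, 1138, 271 and 529 CPM in the control-labelled library and 78.8, 76.5, 66.9 and 394 CPM in the cKO-labelled library.

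Of the 4 Sprr2 members, 2 were past a log2 ratio of -1 and 0 past 1. Among all 8678 genes expressed in epithelium-like cells (at least 10 CPM in either library) 7.24% were past -1 and 13.6% past 1, with a median of 0.26. The members were chosen on these libraries, so nothing is read from the count. Of the 7 other Sprr2 genes found in the files 2 were expressed: Sprr2a3 had 762 and 3 UMIs (log2 ratio -2.65) and Sprr2k had 89 and 37 UMIs (1.74). The list of other small proline-rich and cornified envelope genes had 7 expressed, with 3 past 1 and 1 past -1 (median 0.68), beside the same shares. Among them Sprr1a, a related envelope precursor, had 1658 and 3340 CPM (1.01), and Lor, which encodes loricrin, 26.4 and 127 CPM (2.07). In cluster 0, described below, 2 of 8 were past 1 and 3 past -1 (median -0.50), beside 13.7% and 8.39% of expressed genes. In cluster 9, 1 of 6 was past each limit (median 0.56), beside 9.47% and 6.6%.

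The simple-epithelial keratins were abundant in both libraries. Krt8 was the highest, at 4307 CPM (4278 to 4337) in the control-labelled library and 5599 CPM (5473 to 5727) in the cKO-labelled library, a log2 ratio of 0.38 (0.34 to 0.41). Its partner Krt18 stood at 1864 and 2786 CPM, a log2 ratio of 0.58 (0.53 to 0.63). Krt7 stood at 1564 and 1517 CPM (-0.04, -0.11 to 0.02). None of these 3 was past 1 or -1. Of 16 alternatives Krt8 and Krt18 were above 0 in 15, and Krt7 was below 0 in 15. With cells taken by epithelial markers without clusters the ratios were -0.56 for Krt8, -0.37 for Krt18 and -1.01 for Krt7. That choice took in 226 cKO-labelled cells in place of 109, so it included cells outside the epithelium-like clusters. Without the clusters over 90% from 1 library Krt7 was at 0.26.

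Krt19, which pairs with type II chains in simple epithelia, was the lowest of these 4 in the cKO-labelled library. It stood at 1734 CPM (1715 to 1753) and 963 CPM (911 to 1017), a log2 ratio of -0.85 (-0.93 to -0.77), which went past -1 to -1.01 without the cell of each library richest in it. It made up 18.1% and 8.60% of the keratin members' UMIs. The thinned share of cells with Krt19 was 60.8% and 45.0%, and that with Krt7 64.7% and 45.0%. The thinned share with Krt18 was 63.6% and 68.8%.

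**Figure D3:**
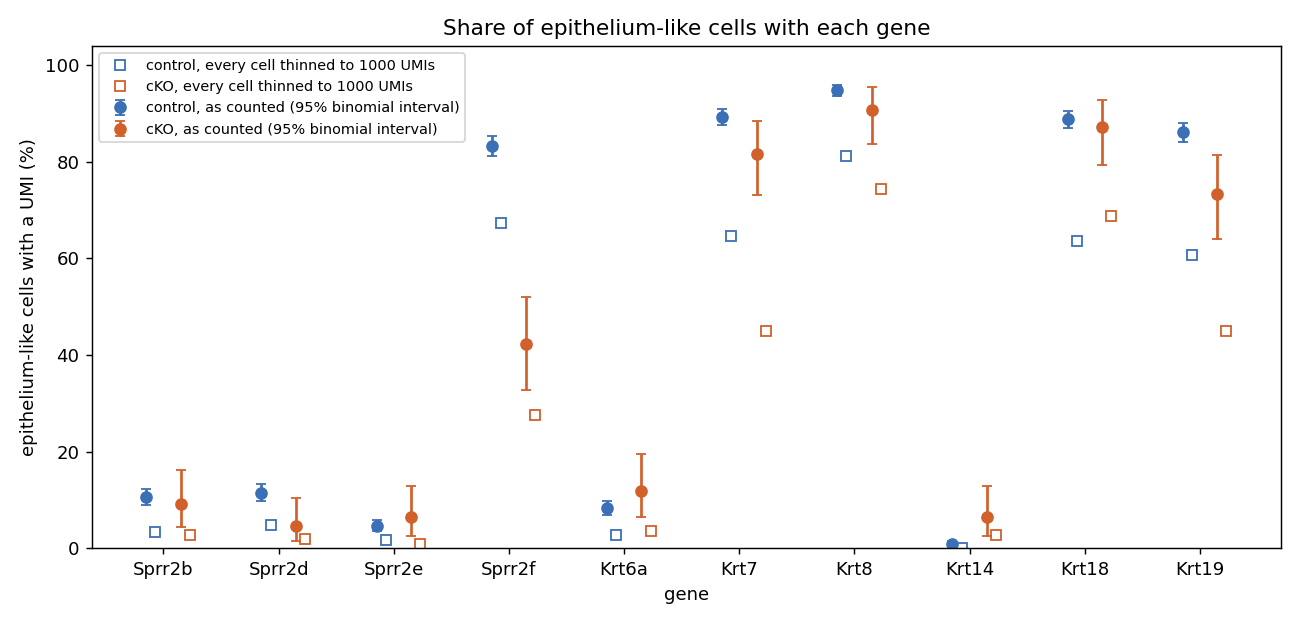
Percent of epithelium-like cells with a UMI of each gene in the control-labelled library (blue) and the cKO-labelled library (orange), as counted with 95% binomial intervals (filled) and with every cell thinned to 1000 UMIs (open squares). Sprr2f differs most, at 83.4% and 42.2% as counted.

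The keratins of stratified epithelia were rare. Their summed levels were higher in the cKO-labelled library, where they rested on few cells. Krt6a had 1729 UMIs (91.5 CPM) in the control-labelled library and 347 (258 CPM) in the cKO-labelled library, a log2 ratio of 1.44 (1.32 to 1.66). The 5 cells richest in it, of 1310 and 109, held 34.8% and 88.8% of these. The ratio fell short of 1 without the clusters over 90% from 1 library (0.33), with cells taken by epithelial markers (0.43) and with cells thinned to 1000 UMIs (0.79). It was found in 8.24% (6.81 to 9.87) and 11.9% (6.51 to 19.5) of epithelium-like cells, shares whose intervals overlap.

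Krt14 rested on a handful of cells. It had 40 UMIs in 12 of 1310 cells (2.12 CPM) in the control-labelled library and 102 UMIs in 7 of 109 cells (75.7 CPM) in the cKO-labelled library, a log2 ratio of 3.50, which the added 5 CPM makes smaller than the plain ratio (4.62 to 5.73). A single cell of 27644 UMIs held 82 of the 102. Without it the level was 15.2 CPM, and with the richest control-labelled cell left out as well the ratio was 1.67. That cell also had 32 Krt5, 35 Krt15 and 2 Trp63 UMIs, all genes of squamous basal cells, with 8 Krt8 and 13 Epcam UMIs. The next cell had 12 Krt14, 14 Krt5 and 11 Krt15 UMIs. In the control-labelled library 10 of the 12 cells with Krt14 had 0 Krt5 and 0 Krt15 UMIs. The cell with most Krt14 there, 15 UMIs, had 573 Krt8 UMIs.

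Of the 6 keratin members, 2 were past a log2 ratio of 1 and 0 past -1, beside the same 13.6% and 7.24% of all expressed genes. Summed, they stood at 9563 CPM (9519 to 9607) and 11199 CPM (11021 to 11379), a log2 ratio of 0.23, near the median of 0.26 for all expressed genes. Within clusters 0 and 9, described below, the summed keratin ratio differed in sign, at -0.19 (-0.26 to -0.12) and 0.70 (0.67 to 0.73). The 4 Sprr2 members summed to 5307 CPM (5275 to 5340) and 2535 CPM (2451 to 2622), a log2 ratio of -1.06 (-1.12 to -1.02).

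Other keratins of stratified epithelia were taken from lists of the same families. Of 4 other type II keratins expressed 2 were past 1 and 1 past -1, beside 13.6% and 7.24% of all expressed genes, with a median of 2.02. Krt5, the basal partner of Krt14, had 13 and 111 UMIs (0.688 and 82.4 CPM, log2 ratio 3.94), Krt4 had 5 and 84 (3.68), and Krt6b had 262 and 1 (-1.72). Of 9 other type I keratins 5 were past 1 and 1 past -1, beside the same shares of all expressed genes, with a median of 1.04. Krt13, of suprabasal squamous cells, had 20.4 and 151 CPM (2.61), Krt15 4.98 and 89.8 CPM (3.25), and Krt17 28.1 and 77.9 CPM (1.32). The Krt5 and Krt15 levels of the cKO-labelled library rested largely on a few cells that also had Krt14. Of the 111 Krt5 UMIs 39 lay in 1 cell, 32 in the cell richest in Krt14 and 14 in another. The same cells held 53, 35 and 11 Krt15 UMIs. At a resolution of 2.0, 27 cells of the cKO-labelled library held 186 of its Krt13 UMIs, and 51 others held 97 of its 102 Krt14 UMIs.

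The composition of the epithelium differed between the libraries. Clusters 4 and 8 held 346 and 230 cells of the control-labelled library and 0 and 1 of the cKO-labelled library, so they may stand for that library rather than for a type of cell. Cluster 8 was deep, with a median cell at 7.26 times the library median of UMIs. In the control-labelled library it held 42014 of the 100243 Sprr2 UMIs and 116219 of the 180615 keratin UMIs of epithelium-like cells. Control-labelled levels summed over all epithelium-like cells therefore weigh it heavily. Clusters 0 (468 and 67 cells) and 9 (266 and 41) were present in both, and the members were compared within them. Levels of some epithelial marker genes differed between the libraries within shared clusters, in part through single cells. At a resolution of 2.0, 1 shared cluster had 197 cells of the control-labelled library, with 2.28 CPM of Krt13, 0 of Krt5, 7.28 of Krt15, 0 of the gland gene Foxa2 and 50.1 of the luminal gene Calb1. Its 27 cells of the cKO-labelled library had 1043, 331, 348, 67.3 and 0 CPM. A single cell of 10116 UMIs held 39 of their 59 Krt5 UMIs and 53 of their 62 Krt15 UMIs. Another had 105 and 51 cells, with 5.51 and 235 CPM of Krt5 and 17.9 and 244 CPM of Krt15. Of the 51 cells, 1 held 32 of the 52 Krt5 UMIs and 35 of the 54 Krt15 UMIs. A further cell held 14 and 11. The part of these differences in the members' values was not tested.

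Sprr2f and Sprr2d were lower in the cKO-labelled library in both shared clusters. Sprr2f had 2441 and 791 CPM in cluster 0 (log2 ratio -1.62, -1.81 to -1.44) and 8739 and 2802 CPM in cluster 9 (-1.64, -1.70 to -1.59). Sprr2d had 324 and 76.3 CPM in cluster 0 (-2.02, -2.74 to -1.50) and 624 and 73.9 CPM in cluster 9 (-3.43 to -2.75). Both ratios were larger in size than in the class as a whole. In cluster 0 a single cKO-labelled cell of 5421 UMIs held all 24 Sprr2d UMIs and 114 of the 249 Sprr2f UMIs. Without the richest cells Sprr2f was at -2.39 in cluster 0 and -2.13 in cluster 9. Sprr2d then had 383 and 0 UMIs in cluster 0 and 2331 and 13 in cluster 9. In cluster 0 a Sprr2f UMI was found in 76.1% and 41.8% of cells, and in cluster 9 in 92.5% and 43.9%.

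Sprr2b and Sprr2e turned on single cells. Sprr2b had 51.6 and 108 CPM in cluster 0 (1.00, 0.46 to 1.63) and 377 and 125 CPM in cluster 9 (-1.56, -1.86 to -1.33). In cluster 0 the same cell of 5421 UMIs held 32 of its 34 cKO-labelled UMIs. Without the cell of each library richest in it the levels were 37.9 and 6.47 CPM, so the ratio turned to -1.90, and in cluster 9 it was -2.11. Sprr2e had 28 and 4 UMIs in cluster 0 (-0.05, -2.05 to 1.44) and 152 and 56.1 CPM in cluster 9 (-1.36, -1.85 to -1.05), where 53 of its 57 cKO-labelled UMIs lay in 1 cell.

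Of the keratins, Krt19 was lower in the cKO-labelled library in both clusters, with log2 ratios of -1.23 (-1.46 to -1.02) and -0.40 (-0.50 to -0.31). Krt18 was higher in both, at 0.36 (0.24 to 0.49) and 1.23 (1.17 to 1.30). Krt7 had 1343 and 750 CPM in cluster 0 (-0.84) and 1219 and 1740 CPM in cluster 9 (0.51). Krt8 had 2570 and 2330 CPM in cluster 0 (-0.14) and 3584 and 6510 CPM in cluster 9 (0.86). The cKO-labelled values of cluster 9 rested on few cells. At a resolution of 2.0, 14 of its 41 cells held 1636 of 1767 Krt7, 6189 of 6610 Krt8 and 2859 of 3090 Krt18 UMIs. The 5 cells richest in each gene held 80.7%, 73.6% and 80.9% of the UMIs of those 14. Krt6a was at 0.58 (-0.47 to 1.72) and 0.20 (0.03 to 0.38), each of which turned to -0.20 without the richest cells. Krt14 had 2 and 97 UMIs in cluster 0, of the latter 82 in 1 cell. In cluster 9 it had 38 and 5 UMIs, or 7.79 and 4.92 CPM (-0.37, -2.37 to 0.68).

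In cluster 0, 3 members were past -1 and 1 past 1, beside 8.39% and 13.7% of 9071 expressed genes. In cluster 9, 4 were past -1 and 1 past 1, beside 6.6% and 9.47% of 8512.

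**Figure D4:**
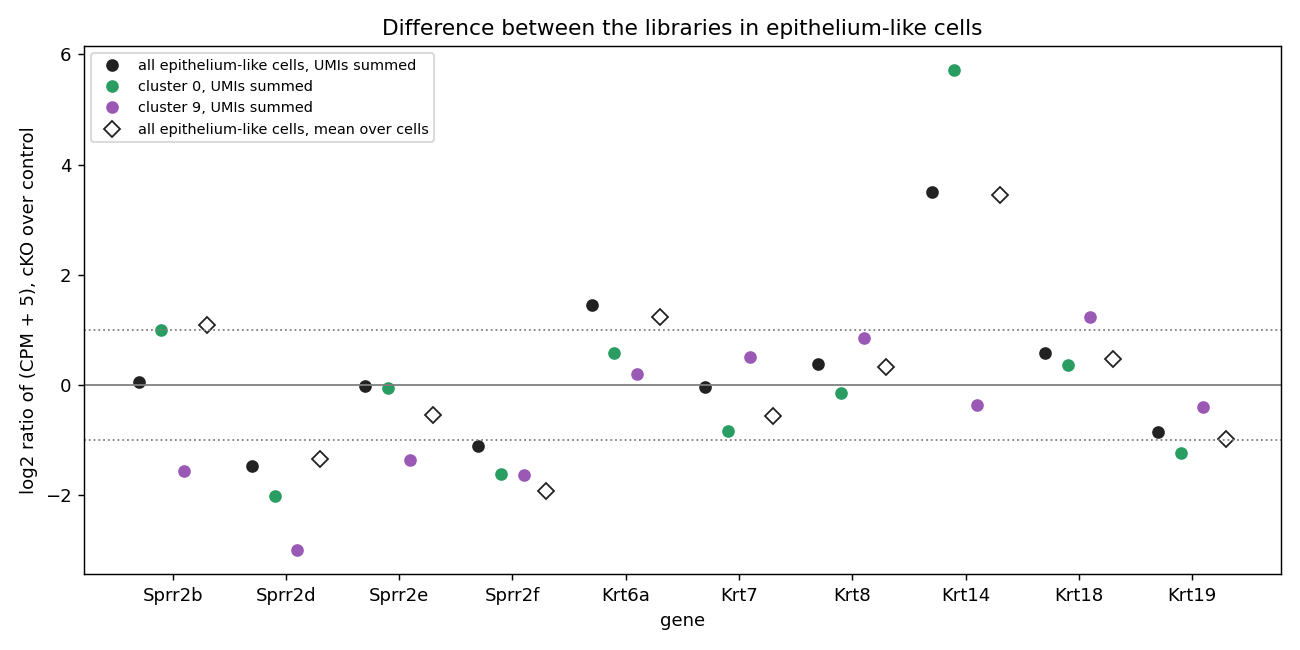
Log2 ratio of CPM plus 5, cKO-labelled library over control-labelled library, for each gene in all epithelium-like cells (black), cluster 0 (green) and cluster 9 (purple), and from the mean over single cells (open diamonds); dotted lines mark 1 and -1. Sprr2d and Sprr2f lie below -1 in each, while Sprr2b lies at 1.00 in cluster 0, where 1 cell holds 32 of 34 UMIs of the cKO-labelled library, and at -1.56 in cluster 9.

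Some genes known to respond to oestrogen in the uterus were lower in the cKO-labelled library too. Of 11 expressed, 5 were past -1 and 1 past 1, beside 7.24% and 13.6% of all expressed genes, with a median of -0.67 beside 0.26. Lcn2 (lipocalin 2) had 4091 and 209 CPM (-4.26), Ltf (lactoferrin) 1529 and 356 CPM (-2.09), and C3 (complement) 2057 and 303 CPM (-2.74). The list counted 6 past -1 in cluster 0, beside 8.39% of expressed genes, and 6 in cluster 9, beside 6.6%. This list was chosen with earlier results of these libraries known and is no independent evidence of direction.

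Of 8 expressed regulators of epithelial and squamous differentiation 1 was past -1 and 0 past 1, beside 7.24% and 13.6% of all expressed genes. It was Elf3, an epithelial transcription factor, with 677 and 275 CPM (-1.29). Esr1, the oestrogen receptor, had 96.3 and 133 CPM (0.45). Of 11 desmosome and keratin linker genes 1 was past each limit, beside the same shares of all expressed genes, with a median of -0.41. Plec, which links keratin filaments to adhesion sites, had 884 and 477 CPM (-0.88).

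Genes that respond to dissociation moved differently in the shared clusters. Of 10 immediate early and heat shock genes 9 were past -1 in cluster 9 (median -1.46, all expressed genes 0.23), beside 6.6% of expressed genes. Fos had 886 and 321 CPM there. In cluster 0, 4 were past 1 and 0 past -1 (median 0.23), beside 13.7% and 8.39% of expressed genes. The 7 smooth muscle markers summed to 37.3 and 221 CPM in epithelium-like cells, with none at 0 in either library. Acta2 alone made up 199 CPM of the latter, and the other 6 markers summed to 23.3 and 22.3 CPM. In cluster 0 the 7 summed to 55.9 and 168 CPM and in cluster 9 to 42.5 and 241 CPM, of which Acta2 was 121 and 227 CPM in the cKO-labelled library. The 6 fibroblast markers summed to 39.2 and 12.6 CPM, with 2 at 0 in the cKO-labelled library, and were lower there in both clusters too. The part of these in the members' values was not tested.

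Over 45 groups of cluster and library with at least 20 cells, the genes whose log2(CPM + 5) was most like that of the summed Sprr2 members were Elf3 (Pearson r 0.953), Cldn7 (0.948), Myh14 (0.944), Padi1 (0.938) and Prom1 (0.933). For Krt14 they were Krt78 (0.871), Krt15 (0.853), Lgals7 (0.827), Lrp2 (0.817) and Atp6v0a4 (0.795). These are descriptions: groups of 1 library share its preparation, and Krt78 had 57 UMIs over all cells. Elf3 and Cldn7 are among the markers that named the epithelium-like cells. The groups span all cell classes, so any gene found mainly in epithelium-like cells scores high beside Sprr2, and no link is read from it.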

How the data were processed

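The deposited files hold unfiltered UMI counts per gene and barcode, which the authors made with Cell Ranger (4 per the file headers, 6.1.1 per the submitters' processing notes, which also name mm10). No normalization had been applied to the deposited counts. Barcodes entered as cells from 1000 UMIs and 500 genes up, with mitochondrial genes holding no more than 20% of their UMIs. Scrublet marked 1 and 3 cells, so it did not work, and doublets were not removed. Cells of both libraries were clustered with scanpy 1.11.5 (2000 variable genes, 30 components, 15 neighbours, Leiden resolution 1.0). The members, related lists and all Krt and Sprr genes, 117 in all, were kept out of the variable genes. A name needed 3 markers, each with a UMI in 25% of a cluster's cells and 2 times the median cluster. The members and lists, and limits on naming clusters, were chosen with earlier results of these data known. All 10 members are named, and of each related list up to 4 genes by level in epithelium-like cells. UMIs were summed per class and library and scaled to CPM. Log2 ratios were taken after adding 5 CPM, which understates changes of low genes. Poisson, Clopper-Pearson and conditional ratio intervals came from scipy 1.17.1. Read length is not given in the sources used here.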

Additional observations from a re-analysis of the deposited data

Results flagged for a closer look

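Sprr2b, Krt7 and Krt8 had log2 ratios of opposite sign in the 2 epithelium-like clusters that both libraries hold, with counting intervals that exclude 0 in each. Sprr2b was at 1.00 in cluster 0 and -1.56 in cluster 9, but 1 cell held 32 of its 34 cKO-labelled UMIs in cluster 0. Without the cell of each library richest in it the ratios were -1.90 and -2.11, of the same sign. Krt7 was at -0.84 in cluster 0 and 0.51 in cluster 9. Krt8 was at -0.14 in cluster 0 and 0.86 in cluster 9. In cluster 9, 14 cKO-labelled cells held 1636 of the 1767 Krt7 UMIs and 6189 of the 6610 Krt8 UMIs. With 1 library per group the difference between the clusters was not tested. All 10 members were looked at by this rule, which was set after the values were seen. Averaged over single cells in place of summed UMIs, Sprr2b was at 0.67 in cluster 0 and 0.34 in cluster 9, and Krt8 at 0.01 and 1.09, so that neither had opposite signs. Those means of Sprr2b rested on single cells as well, and were -2.19 and -1.58 without the richest. For Krt7 the ratios of means were -0.98 and 0.55. Without the richest cells the summed ratios were -0.96 and 0.24 for Krt7, and -0.18 and 0.99 for Krt8.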

How the results depend on the processing

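No paired analysis was possible because each group is 1 pooled library. The summed Sprr2 log2 ratio of -1.06 was negative under all 16 alternatives, from -2.60 to -0.96. It was -1.26 with median of ratios scaling, -0.96 at up to 10% mitochondrial UMIs, -2.09 with cells taken by epithelial markers without clusters (1442 and 226 cells), -1.60 without the clusters over 90% from 1 library, and -1.60 with cells thinned to 1000 UMIs. Chosen after seeing the data, equal weighting of cells gave -1.69, leaving out the 5 deepest cells of each library -2.60, and leaving out the cell of each library richest in the summed genes -1.51. The 5 deepest cells held 82.9% of the Sprr2 UMIs of epithelium-like cells in the cKO-labelled library and 7.24% in the control-labelled library. They held 48.9% and 4.34% of all UMIs of these cells, and 56.0% and 3.85% of the keratin UMIs. The summed keratin ratio of 0.23 was, under the same 8 settings in that order, 0.027, 0.16, -0.72, 0.56, 0.086, 0.062, 0.0023 and 0.17. The ratio of shares of cells with a Sprr2 UMI, -0.96, was -1.79 with the marker choice and -1.31 with thinned cells. Over all 16 alternatives Sprr2f (as far as -2.90) and Sprr2d (-2.76 to -1.31) stayed below -1 and Krt14 above 1 (1.67 to 4.62). Sprr2b was above 0 in 12 and below in 4, Krt6a was past 1 in 13, and Krt8 and Krt18 were above 0 in 15. The causes of these shifts were not tested. Subtracting free RNA used a share of 1.18% in the control-labelled library and 0 in the cKO-labelled library, where 14 UMIs of Ltf and Clca1 in empty droplets gave little to estimate it from. The UMI and mitochondrial settings kept the clusters as they were. The 109 cells of the cKO-labelled library limit every value.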
